A study of Mus musculus with 15 samples.

Results

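The genes described here are 8 components of transforming growth factor beta (TGF-beta) signalling: the ligands Tgfb1, Tgfb2 and Tgfb3, the receptors Tgfbr1 and Tgfbr2, the receptor-activated transcription factor Smad3, the inhibitory Smad7 and the corepressor Ski. They were taken by gene symbol, and each symbol matched 1 row in all 3 deposited tables, so that 8 of 24421 genes are covered. TGF-beta ligands are secreted in a latent complex and must be released before they bind. Released ligand binds TGFBR2, which recruits and phosphorylates TGFBR1, and TGFBR1 then phosphorylates SMAD2 and SMAD3, which enter the nucleus with SMAD4. SMAD7 is induced by the signal and blocks the receptor, while SKI represses transcription at SMAD-bound genes. In the mouse brain, TGF-beta signalling is needed for microglia to acquire and keep their characteristic expression programme.

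All animals were male mice aged 8 to 24 weeks. Stroke was modelled by blocking the middle cerebral artery with a filament for 60 minutes and then letting blood flow return. Wild-type C57BL/6J microglia came from sham-operated mice, which had the surgery without the occlusion, or were taken 1, 6, 14 or 28 days after the occlusion. Mice with the Igf1-Egfp transgene, whose EGFP reports Igf1, gave EGFP-positive and EGFP-negative microglia on days 6 and 14 after stroke. Mice of the genotype Cx3cr1-CreER;Yy1flox/flox, here named Yy1-deleted, were compared with Yy1flox/flox mice without Cre, called floxed controls, both on day 6 after stroke. The CreER in these mice is driven by Cx3cr1, so it acts in Cx3cr1-expressing cells, and the presence of CreER cannot be told apart from the loss of Yy1. Cells were sorted from forebrain by CD45 and CD11b and also stained for CD31, an endothelial and leukocyte antigen. There were 3 libraries in each Yy1 group and 1 library in each of the other 9 groups. Whether a library pooled animals was not given in the sources used here.

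Libraries held 10.5 to 13.9 M counts (M, 1e6) in the Yy1 table and 16.8 to 52.6 M counts in the time course table, which also holds the EGFP libraries of day 6. The EGFP libraries of day 14 held 23.1 to 24.6 M counts. The wild-type libraries of days 14 and 28 had fewer genes with a count, 11823 and 9886, against 16009 in the sham library. All 10 microglial markers were detected in every library. On day 6 the EGFP-positive library had 822 CPM of Igf1 (CPM, counts per 1e6 counts), against 49.4 CPM in the EGFP-negative library, and on day 14 these states had 33.5 and 11.1 CPM. The level of Yy1 was 32.5, 28.9 and 38.8 CPM in Yy1-deleted libraries, against 76.1, 50.9 and 57.9 CPM in floxed controls. Every Yy1-deleted library was below every floxed control (log2 fold change -0.88, SE 0.28), but the difference missed the threshold (adjusted p = 0.128, edgeR quasi-likelihood test with Benjamini-Hochberg adjustment over all genes). Which exons were floxed was not given in the sources used here.

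Promoter sequences were available for 6 of the 8 genes, and not for Tgfb3 or Smad7. Smad7 alone passed the edgeR threshold in the Yy1 comparison. The sequences of Tgfbr1, Tgfbr2 and Smad3, which missed it, are shown because these genes carry the receptor and SMAD steps of the pathway. Each is the 250 bases before the annotated start, on the gene's own strand, from RefSeq on GRCm38.p6. They lie at chr4:47352972-47353221 (plus strand) for Tgfbr1, chr9:116175364-116175613 (minus strand) for Tgfbr2 and chr9:63757995-63758244 (minus strand) for Smad3. Capitals mark a CAGAC letter run, the core of the SMAD-binding box, in Tgfbr2, and a GCCATC run, the YY1 core GATGGC read on the other strand, in Smad3.
Tgfbr1: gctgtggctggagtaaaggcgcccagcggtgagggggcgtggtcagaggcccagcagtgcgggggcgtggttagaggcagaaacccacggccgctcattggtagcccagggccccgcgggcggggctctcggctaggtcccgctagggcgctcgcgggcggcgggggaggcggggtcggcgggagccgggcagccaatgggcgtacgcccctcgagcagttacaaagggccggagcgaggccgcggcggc
Tgfbr2: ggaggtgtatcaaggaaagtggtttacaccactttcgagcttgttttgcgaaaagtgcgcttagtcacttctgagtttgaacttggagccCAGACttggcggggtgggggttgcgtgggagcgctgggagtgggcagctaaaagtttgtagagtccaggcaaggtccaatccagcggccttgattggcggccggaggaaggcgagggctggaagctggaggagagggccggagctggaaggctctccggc
Smad3: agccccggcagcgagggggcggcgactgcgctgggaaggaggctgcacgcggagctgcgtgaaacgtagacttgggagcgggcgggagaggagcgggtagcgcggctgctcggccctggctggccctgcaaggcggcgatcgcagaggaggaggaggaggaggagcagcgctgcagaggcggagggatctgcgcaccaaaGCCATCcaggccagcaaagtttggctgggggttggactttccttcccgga

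Both strands were searched for GATGGC and CAGAC, which do not overlap each other in these windows. GATGGC occurred in the Smad3 window and in none of the other windows of these genes, while 10.7% of 32851 windows of the same length in the annotation hold it. CAGAC, held by 42.2% of all windows, occurred 1 time in Tgfbr2, 2 times in Tgfb2 and 1 time in the window of a second annotated start of Tgfbr1. The Tgfb1 and Ski windows held neither letter run. The GC content of the windows was 53.6% in Tgfb2, 58.4% in Tgfbr2, 69.2% in Smad3, 74.8% in Tgfbr1, 75.2% in Tgfb1 and 87.6% in Ski. A match here describes letters in the window only.

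The wild-type time course asks how the pathway's genes stand in sham-operated mice and at each day after stroke. Tgfbr1 stood lower than in the sham library on all 4 days, while Tgfb2 and Tgfb3, almost silent in the sham library, were highest on day 14. Levels are given as CPM scaled by the TMM method, and changes as log2 ratios of CPM plus 1 CPM. With 1 library per time point there is no test. A gene is said to be past the size rule when its log2 ratio is at least 1 in either direction, with at least 20 CPM in 1 of both libraries. Fold intervals are 95% Clopper-Pearson intervals and cover counting error only.

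Among the ligands, Tgfb1, the isoform that microglia express most, stood at 339.5 CPM in the sham library and at 160, 222, 146 and 424 CPM on days 1, 6, 14 and 28. It was past the size rule on days 1 and 14, at log2 ratios of -1.08 and -1.21 against sham, and the day 28 level was 1.25-fold the sham level (interval 1.21 to 1.29). The levels of Tgfb1 on days 1 and 14 were the lowest of the course and that on day 28 the highest. Tgfb2, a ligand made by many cell types outside the immune system, stood at 4.31, 25.5, 15.2, 65.1 and 0.173 CPM in the sham, day 1, day 6, day 14 and day 28 libraries. The day 28 value of Tgfb2 rests on 4 counts. Tgfb3, the third mammalian isoform, stood at 1.19, 14.9, 9.77, 27.0 and 0 CPM in the same order. Tgfb2 was past the size rule on day 1 (log2 ratio 2.32) and day 14 (3.64), and Tgfb3 on day 14 (3.68), where its level was 22.7-fold the sham level (interval 15.7 to 33.9).

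Markers of vessel cells were, like Tgfb2 and Tgfb3, above sham on days 1, 6 and 14 and below it on day 28, though not in the same order of levels. The summed level of 10 endothelial markers was 258, 386, 2875, 6363 and 30.4 CPM in the sham, day 1, day 6, day 14 and day 28 libraries. The summed level of 8 mural and fibroblast markers was 39.5, 434, 797, 705 and 1.04 CPM in the same order. Both ligands were lower on day 6 than on day 1, whereas both sums were higher on day 6. On day 28, when Tgfb3 was at 0 counts, Sele was at 0 among the endothelial markers, and Col1a1, Dcn and Lum were at 0 among the mural and fibroblast markers. The part of these cells in the levels of Tgfb2 and Tgfb3 was not tested. The sum of 8 neutrophil markers was 41.3, 1962, 339, 11.1 and 2104 CPM in the sham, day 1, day 6, day 14 and day 28 libraries. The sum of 8 dendritic markers was 20.7, 19.8, 18.9, 15.6 and 451 CPM in the same order. The part of these cells in the levels of Tgfb1 and the other genes was not tested either. In sorted bulk samples like these, fewer cells of a type and less RNA per cell cannot be told apart.

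Of the receptors, Tgfbr1, the kinase that phosphorylates SMAD proteins, stood at 3772 CPM in the sham library and at 981, 1797, 905 and 1795 CPM on days 1, 6, 14 and 28. Its level was past the size rule on every day, with log2 ratios of -1.94, -1.07, -2.06 and -1.07, although the day 28 value was -0.95, short of the rule, under RLE scaling. On day 14 it was 0.240-fold the sham level (interval 0.235 to 0.245). The summed level of the 10 microglial markers was also below sham on every day. It was 35140 CPM in the sham library and 9105, 18809, 10810 and 16700 CPM on days 1, 6, 14 and 28. Its part in the levels of Tgfbr1 and of the other genes was not tested. Tgfbr2, which binds the ligand first, stood at 896 CPM in the sham library and at 401, 804, 666 and 449 CPM on days 1, 6, 14 and 28. Only day 1 was past the size rule for Tgfbr2 (log2 ratio -1.16), and day 28, at -0.99, lay just short of it. The receptors thus differed most on day 14, when the log2 ratio to sham was -2.06 for Tgfbr1 and -0.43 for Tgfbr2. On the length-scaled RPKM scale, the level of Tgfbr1 divided by that of Tgfbr2 was 5.28 in the sham library and 3.06, 2.80, 1.70 and 5.0 on days 1, 6, 14 and 28.

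Smad3, the transcription factor that carries the signal, stood at 263 CPM in the sham library and at 113, 114, 160 and 172 CPM on days 1, 6, 14 and 28. It was past the size rule on days 1 and 6, at log2 ratios of -1.21 and -1.20, and not on the later days (-0.71 and -0.61). Every day after stroke was below sham, and the later days lay closer to it. Smad7, the feedback inhibitor of the receptor, stood at 216 CPM in the sham library and at 117, 157, 114 and 111 CPM on days 1, 6, 14 and 28. Its log2 ratios of -0.89, -0.46, -0.92 and -0.96 all stayed within the size rule, those of days 14 and 28 only narrowly. TMM computed over the wild-type libraries alone moved the median log2 ratio of all genes by -0.104 on day 14 and -0.0964 on day 28. The place of Smad7 within the rule on those days thus depends on the scaling. Ski, a corepressor that binds SMAD proteins, stood at 780.2 CPM in the sham library and at 464, 530.0, 513 and 248 CPM on days 1, 6, 14 and 28. The day 28 level of Ski was past the size rule (log2 ratio -1.65) at 0.318-fold the sham level (interval 0.306 to 0.331).

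**Figure D1:**
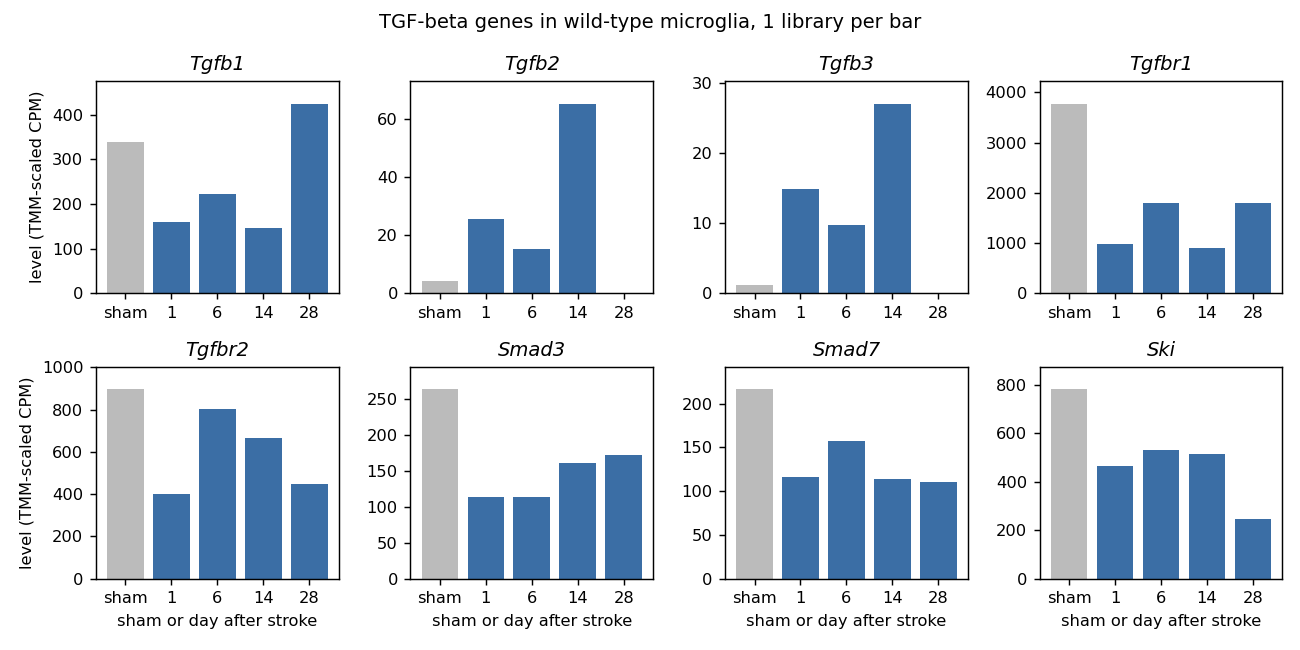
Level of each of the 8 genes in TMM-scaled CPM (vertical axis, each panel with its own scale starting at 0) in wild-type microglia of sham-operated mice and of days 1, 6, 14 and 28 after stroke, with 1 library per bar and so no error bar. Tgfbr1 is highest in the sham bar at 3772 CPM, and Tgfb2 and Tgfb3 are highest on day 14 at 65.1 and 27.0 CPM.

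On day 1, 7 of the 8 genes were high enough to be considered, of which 1 was past the size rule upward and 4 downward. The same rule was passed by 12.8% of 7208 genes upward and 10.1% downward on that day. On day 6, 6 were considered, with 0 upward and 2 downward (all genes 10.8% and 2.68% of 7090). On day 14, all 8 were considered, with 2 upward and 2 downward (all genes 22.7% and 20.0% of 7815), which is close to the share of genes in general. On day 28, 6 were considered, with 0 upward and 2 downward (all genes 26.8% and 24.1% of 7597), and this count was 1 under RLE scaling, which leaves out Tgfbr1, and 4 when TMM was computed over the wild-type libraries alone. The median log2 ratios of the genes considered were -1.08, -0.59, -0.66 and -0.98 on days 1, 6, 14 and 28, against medians of 0.02, -0.07, -0.02 and 0.15 over all genes considered. The 4 comparisons share the sham library.

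The other genes of the pathway divided by list. Of 20 microglial genes that need TGF-beta signalling, a list that includes Tgfbr1, 0 were past the size rule upward and 16 downward on day 1, 0 and 8 on day 6, 1 and 15 on day 14, and 1 and 12 on day 28. All 10 microglial markers belong to this list. Over all genes considered, 12.8% were past the rule upward and 10.1% downward on day 1, and 10.8% and 2.68% on day 6. These shares were 22.7% and 20.0% on day 14, and 26.8% and 24.1% on day 28. P2ry12, the purinergic receptor by which resting microglia sense nucleotides, stood at 5974 CPM in the sham library and at 405, 1850, 1212 and 2923 CPM on days 1, 6, 14 and 28. Slc2a5, a fructose transporter that marks microglia, stood at 413 CPM in the sham library and at 23.5, 106, 102 and 104 CPM. Textbook targets that TGF-beta induces in other cells went the other way, with 10 upward and 1 downward of 13 considered on day 1, 9 and 0 of 14 on day 6, 12 and 1 of 16 on day 14, and 6 and 2 of 10 on day 28. Among them Fn1, which encodes fibronectin, stood at 44.8 CPM in the sham library and at 1153, 1369, 2089 and 747 CPM on days 1, 6, 14 and 28. Ctgf, a matricellular protein gene, stood at 1.64, 58.8, 32.0, 53.2 and 0.0866 CPM in the sham, day 1, day 6, day 14 and day 28 libraries. Fn1 is also a monocyte marker, and the summed level of 8 monocyte markers that includes it was 60.0 CPM in the sham library and 1602, 1432, 2127 and 2025 CPM on days 1, 6, 14 and 28. Acta2, Col1a1 and Col1a2 in this target list are also mural and fibroblast markers, whose summed levels are given above. The part of other cells in these levels was not tested.

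Of the genes that hold or release latent TGF-beta and were considered, 5 were past the size rule upward and 2 downward of 10 on day 1, 4 and 0 of 11 on day 6, 5 and 2 of 12 on day 14, and 2 and 1 of 8 on day 28. Over all genes considered, 12.8% were upward and 10.1% downward on day 1, and 10.8% and 2.68% on day 6. These shares were 22.7% and 20.0% on day 14, and 26.8% and 24.1% on day 28. The downward count of day 14 and the upward count of day 28 lay close to those shares. Nrros, which anchors latent TGF-beta1 on microglia, stood at 155 CPM in the sham library and at 122, 92.1, 18.4 and 90.7 CPM on days 1, 6, 14 and 28. It was past the size rule on day 14 alone (log2 ratio -3.01). Lrrc32, the related anchor of endothelial and regulatory T cells, stood at 2.27, 35.9, 35.1, 109 and 0 CPM in the sham, day 1, day 6, day 14 and day 28 libraries. Lrrc32 thus had its highest value on day 14, where Nrros had its lowest. Thbs1, whose product thrombospondin 1 can release the ligand from its latent complex, stood at 40.5 CPM in the sham library and at 1210, 130, 202 and 451 CPM. Thbs1 was past the size rule on all 4 days. The coreceptor Tgfbr3 stood at 5.62, 24.0, 57.6, 168 and 0.0866 CPM in the sham, day 1, day 6, day 14 and day 28 libraries, again highest where the endothelial sum was highest.

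**Figure D2:**
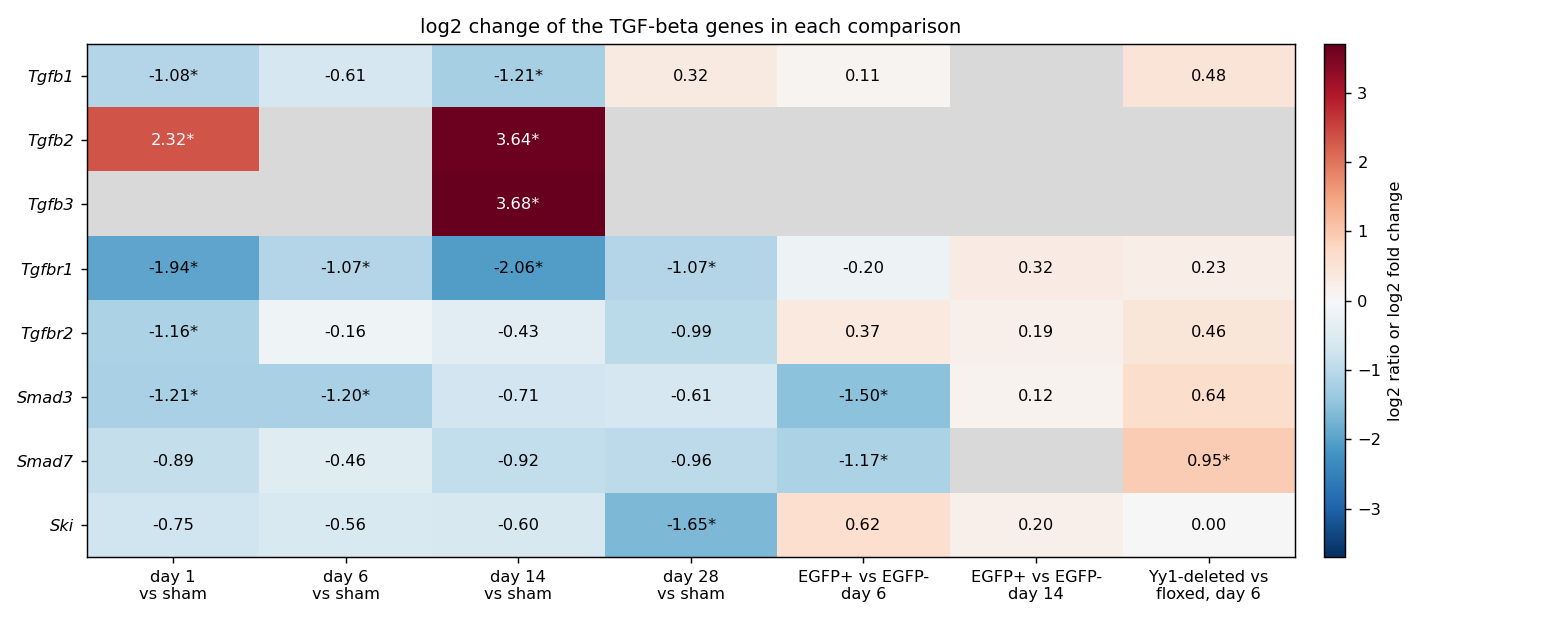
Log2 change of each of the 8 genes (rows) in each comparison (columns), coloured blue for lower and red for higher; the first 6 columns are log2 ratios of single libraries and the last is the edgeR log2 fold change of 3 Yy1-deleted over 3 floxed control libraries. An asterisk marks the size rule in the first 6 columns and an adjusted p under 0.05 in the last, grey marks genes under 20 CPM, and Tgfbr1 is marked on all 4 days after stroke, on day 28 not under RLE scaling (-0.95).

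The Igf1-Egfp libraries ask whether microglia that express the reporter differ from those that do not. On day 6, Smad3 and Smad7 were lower in EGFP-positive cells, while the receptors and Tgfb1 lay close together in both states. Smad3 stood at 31.2 CPM with EGFP and 90.3 CPM without it, a log2 ratio of -1.50 and a fold of 0.345 (interval 0.309 to 0.385). Smad7 stood at 58.7 CPM with EGFP and 134 CPM without it, a log2 ratio of -1.17 and a fold of 0.439 (interval 0.405 to 0.476). Both were past the size rule, making 2 downward and 0 upward of the 6 genes considered, beside 11.5% of 7261 genes downward and 7.71% upward. Ski lay the other way, at 516 CPM with EGFP and 336 CPM without it (log2 ratio 0.62), within the size rule. Tgfb1 stood at 230.2 and 213 CPM, Tgfbr1 at 1186 and 1364 CPM and Tgfbr2 at 596 and 461 CPM in EGFP-positive and EGFP-negative cells. The low ligands Tgfb2 (0.391 and 3.57 CPM) and Tgfb3 (5.62 and 2.16 CPM in the same order) were not considered.

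The 2 states on day 6 also differed in markers of other cells. The summed level of 8 neutrophil markers was 87.0 CPM in the EGFP-positive library and 10536 CPM in the EGFP-negative one, with Mpo, Retnlg and Elane at 0 in the EGFP-positive library. The sum of 8 monocyte markers was 1113 CPM in the EGFP-positive library and 4683 CPM in the EGFP-negative one, whereas the sum of 10 microglial markers was close, at 9902 and 10558 CPM. Their part in the Smad3 and Smad7 values was not tested.

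On day 14, 0 of the 4 genes considered were past the size rule in either direction, beside 11.2% of 7085 genes upward and 10.9% downward. Marker sums of other cells were higher in the EGFP-positive library that day. They stood at 864 CPM with EGFP and 0.157 CPM without it for neutrophils, 546 and 94.0 CPM for monocytes, 498 and 30.7 CPM for endothelial cells and 50.8 and 0 CPM for mural cells and fibroblasts. The microglial sum was close, at 47238 and 48366 CPM in the same order, and the part of other cells in the day 14 values was not tested. Tgfbr1 stood at 1438 CPM with EGFP and 1154 CPM without it, and Tgfbr2 at 1164 and 1021 CPM. Smad3 stood at 146 CPM with EGFP and 134 CPM without it (fold 1.09, interval 1.02 to 1.16), and Ski at 114 and 99.1 CPM. The 4 log2 ratios lay between 0.12 and 0.32, so that the difference in Smad3 seen on day 6 was not seen on day 14; the difference between days was not tested. Smad7 stood at 3.59 CPM with EGFP and 15.3 CPM without it (log2 ratio -1.82), too low to be considered. Tgfb1 stood at only 10.4 CPM with EGFP and 1.88 CPM without it, and Tgfb3 at 0 in both. These libraries form a table of their own, scaled apart from the other tables and sequenced on another instrument. Of 1054 genes at 100 CPM or more in all 7 libraries of the time course table, 54 (5.12%) were below 20 CPM in both day 14 EGFP libraries, Tgfb1 among them. Smad7, at 58.7 CPM in the day 6 EGFP-positive library, was not covered by that count. Yy1 stood at 1.71 CPM with EGFP and 1.41 CPM without it on day 14. Levels of Tgfb1 and Smad7 in the day 14 EGFP libraries are not set against those of other days.

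Of the 20 TGF-beta dependent microglial genes, 0 were past the size rule upward and 5 downward on day 6, and 0 in either direction on day 14. Over all genes considered, 7.71% were upward and 11.5% downward on day 6, and 11.2% and 10.9% on day 14. Slc2a5 stood at 20.2 CPM with EGFP and 49.1 CPM without it on day 6. Of the textbook TGF-beta targets considered, 2 were upward and 3 downward of 11 on day 6, and 3 upward and 0 downward of 8 on day 14, when the marker sums of other cells were also higher with EGFP. Pmepa1, an inhibitor of SMAD signalling that TGF-beta induces, stood at 252 CPM with EGFP and 100.5 CPM without it on day 6, and at 51.9 and 53.1 CPM in these states on day 14, where they lay together.

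**Figure D3:**
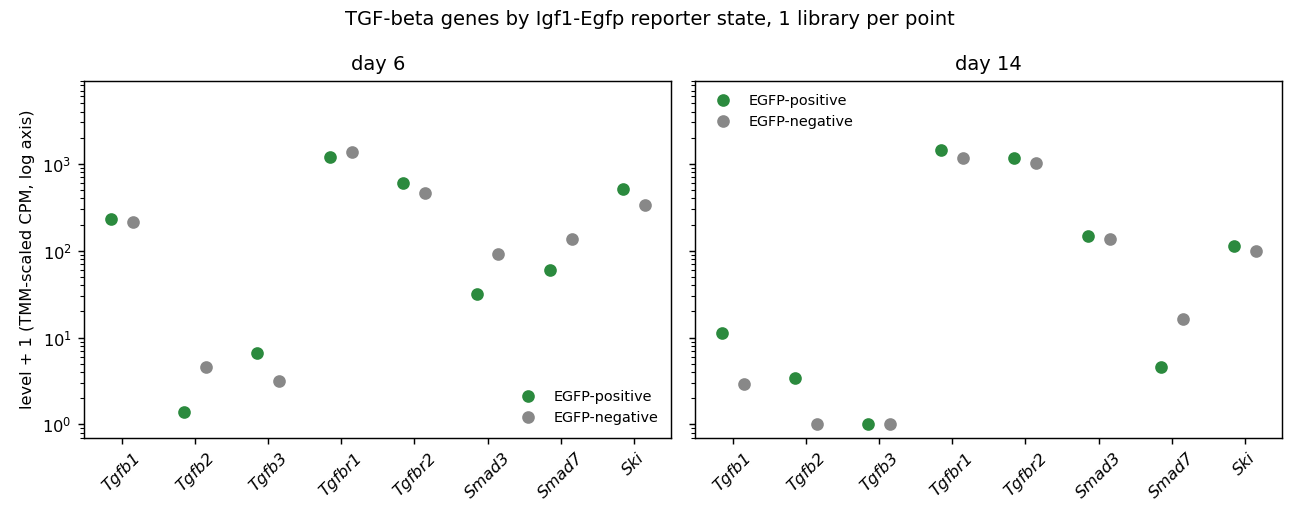
Level plus 1 CPM of each of the 8 genes on a log axis (TMM-scaled CPM) in EGFP-positive (green) and EGFP-negative (grey) microglia on days 6 and 14 after stroke, with 1 library per point and each day scaled within its own table. Smad3 and Smad7 lie lower in the EGFP-positive library on day 6, at 31.2 and 58.7 CPM, and Tgfbr1 and Tgfbr2 lie close together in both states.

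The Yy1 libraries ask what the loss of YY1, a zinc finger transcription factor that can activate or repress its targets, does to microglia 6 days after stroke. Smad7 rose in Yy1-deleted microglia, 1.93-fold. Smad3, Tgfbr2 and Tgfbr1 lay above the controls in every library but missed the threshold, and Ski showed no difference larger than the spread between libraries. Tests are edgeR quasi-likelihood tests, two-sided, with p-values adjusted by Benjamini-Hochberg over 12387 genes and a threshold of 0.05.

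Smad7 stood at 310, 243 and 248 CPM in the 3 Yy1-deleted libraries, against 132, 154 and 129 CPM in the 3 floxed controls. The groups did not overlap, and the lowest Yy1-deleted library lay well above the highest control. Means were 267 ± 37.6 CPM in Yy1-deleted and 138 ± 13.5 CPM in floxed control libraries (SD, n = 3 each). The edgeR log2 fold change was 0.95 (SE 0.17, 95% interval 0.60 to 1.31, adjusted p = 0.00385). Without floxed control replicate 1 the log2 fold change was 0.92 but the edgeR adjusted p was 0.0527, the only one of 13 alternatives in which Smad7 missed the threshold.

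Smad3 stood at 198, 210 and 224 CPM in Yy1-deleted libraries, against 118, 135 and 152 CPM in floxed controls. Every Yy1-deleted library of Smad3 lay above every control, with a log2 fold change of 0.64 (SE 0.17, edgeR adjusted p = 0.0546). Tgfbr2 stood at 891, 1038 and 881 CPM in Yy1-deleted libraries, against 628, 669 and 747 CPM in floxed controls. Its groups did not overlap either (log2 fold change 0.46, SE 0.12, edgeR adjusted p = 0.0654). Both genes passed the threshold with DESeq2 and when no filter on low counts was used, so their calls depend on the method. Tgfbr1 stood at 2820, 2457 and 2435 CPM in Yy1-deleted libraries, against 2224, 2321 and 2019 CPM in floxed controls, again without overlap (log2 fold change 0.23, SE 0.10, edgeR adjusted p = 0.311). The 95% interval of the Tgfbr1 log2 fold change ran from 0.01 to 0.45.

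Tgfb1 stood at 263, 356 and 228 CPM in Yy1-deleted libraries, against 205, 172 and 232 CPM in floxed controls. These groups overlapped (log2 fold change 0.48, SE 0.18, edgeR adjusted p = 0.228). Ski stood at 612, 947 and 761 CPM in Yy1-deleted libraries, against 796, 676 and 851 CPM in floxed controls, with a 95% interval of the log2 fold change from -0.33 to 0.32. Tgfb2 stood at 1.18, 0 and 0 CPM in Yy1-deleted libraries, against 2.85, 1.29 and 7.68 CPM in floxed controls (12 against 159 counts in all). Its edgeR log2 fold change of -3.30 had an SE of 1.94 and an adjusted p of 0.509, and ran from -8.58 to -2.37 when 1 library was left out, the first without Yy1-deleted replicate 1, the only one of its group with a count. Tgfb3 had 0 counts in all 3 Yy1-deleted libraries, against levels of 0.335, 1.90 and 0.0698 CPM in floxed controls, and was too low to be tested. Of its 27 counts in the controls, 22 came from floxed control replicate 2.

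**Figure D4:**
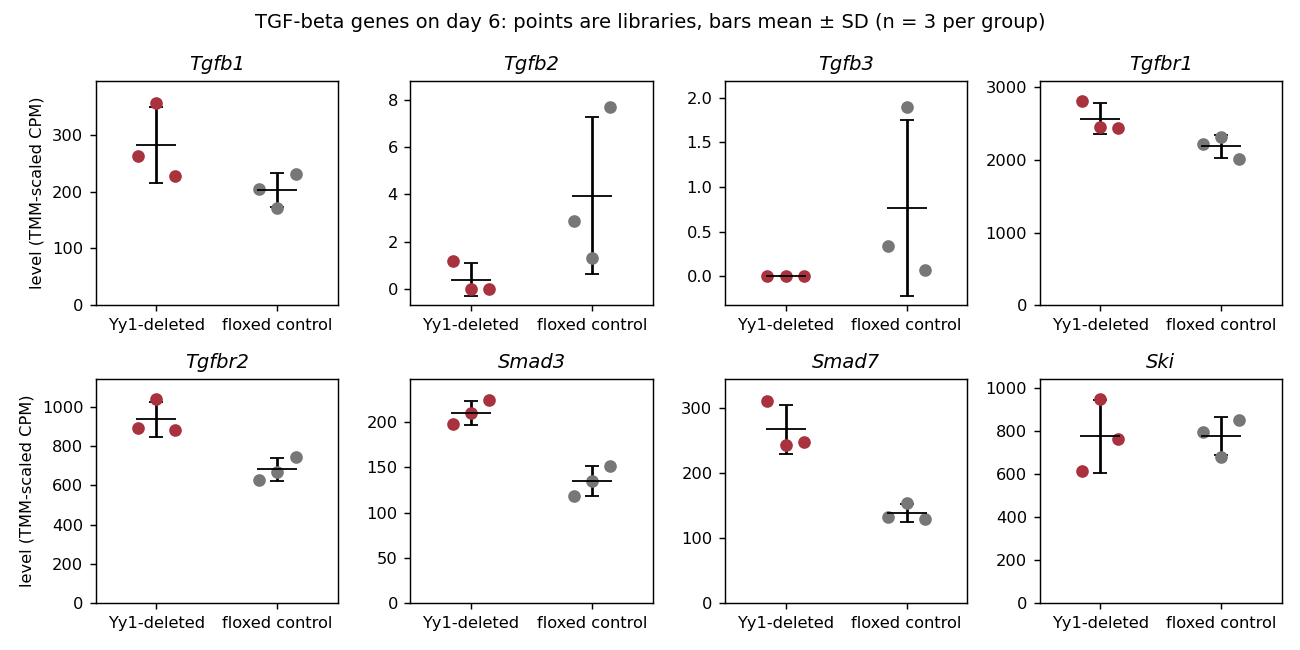
Level of each of the 8 genes in TMM-scaled CPM in 3 Yy1-deleted (red) and 3 floxed control (grey) libraries on day 6 after stroke; points are libraries, and bars give the mean ± SD. Smad7 averages 267 ± 37.6 CPM in Yy1-deleted and 138 ± 13.5 CPM in floxed control libraries, with no overlap between the groups.

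Of the 7 genes tested, 1 rose and 0 fell, beside 1.55% of 12387 genes that rose and 1.05% that fell. In 4 of the 7 (Tgfbr1, Tgfbr2, Smad3 and Smad7) all Yy1-deleted libraries lay above all controls, and in 1 (Tgfb2) all lay below, beside 9.54% and 11.5% of all genes tested. The median log2 fold change of the 7 genes was 0.46, against -0.02 over all genes tested.

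Marker sums of several cell types also separated the Yy1 groups. The sum of 10 microglial markers ran from 24552 to 26590 CPM in Yy1-deleted libraries and from 15331 to 16558 CPM in floxed controls, a ratio of means of 1.61. Sums ran from 436 to 575 CPM in Yy1-deleted libraries and from 633 to 850 CPM in floxed controls for 10 endothelial markers. For 8 monocyte markers they ran from 613 to 731 CPM in Yy1-deleted libraries and from 836 to 1210 CPM in floxed controls, and for 8 border-associated macrophage markers from 22.2 to 45.7 CPM and from 80.9 to 106 CPM in the same order. Sums of 8 mural and fibroblast markers overlapped, at 14.5 to 58.1 CPM in Yy1-deleted libraries and 45.3 to 115 CPM in floxed controls. Their part in the values of Smad7, Smad3 and the receptors was not tested.

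In the wider pathway, 17 of 84 tested list genes changed by the edgeR test, 16 up and 1 down, and 13 of the 17 belong to the TGF-beta dependent microglial list. Over all genes tested, 1.55% rose and 1.05% fell. The count of 17 was 26 with DESeq2 (20 up and 6 down) and 10 without floxed control replicate 1 (9 up and 1 down). Scaling by total counts gave 12 up and 4 down. In that list 13 of 20 genes rose and 0 fell, with a median log2 fold change of 0.59. All 10 microglial markers belong to this list and all 10 rose, and the list was chosen with this rise known, so its count is no independent evidence of direction. Slc2a5 rose most, to a mean of 217 CPM in Yy1-deleted libraries against 33.4 CPM in floxed controls (log2 fold change 2.70), followed by Olfml3, a secreted matrix protein gene (1.92), Fcrls (1.49) and P2ry12 (1.21). Outside that list, 4 of 65 tested genes changed by edgeR. Itgb5, a subunit of the alpha v beta 5 integrin that can release latent TGF-beta, averaged 1015 CPM in Yy1-deleted and 632 CPM in floxed control libraries (log2 fold change 0.68, adjusted p = 0.00485). Eng, which encodes the coreceptor endoglin, averaged 177 CPM in Yy1-deleted and 90.8 CPM in floxed control libraries (log2 fold change 0.96, edgeR adjusted p = 0.0470). Skil, a relative of Ski and itself a TGF-beta target, averaged 1136 CPM in Yy1-deleted and 815 CPM in floxed control libraries (log2 fold change 0.48, edgeR adjusted p = 0.0332). Tgfbi, a secreted protein gene named for its induction by TGF-beta, fell to 37.1 CPM in Yy1-deleted libraries, against 125 CPM in floxed controls (log2 fold change -1.75, edgeR adjusted p = 4.9e-04). Itgb5 and Tgfbi passed the threshold in all 13 alternatives, and Eng and Skil in 7 of 13.

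Textbook TGF-beta targets as a group gave 1 gene up (Skil) and 1 down (Tgfbi) of 16 tested, with a median log2 fold change of -0.56. For this list and those below, the shares over all genes tested were 1.55% up and 1.05% down. The median takes in genes near the floor in Yy1-deleted libraries, among them Col1a1 and Col3a1 (0 CPM), Col1a2 (0.107 CPM) and Tagln (0.296 CPM). Acta2, Col1a1 and Col1a2 are also mural and fibroblast markers, whose part in the median was not tested. Cdkn1a, Junb, Pmepa1 and Skil had positive log2 fold changes. Pmepa1, which encodes an inhibitor of SMAD signalling, averaged 193 CPM in Yy1-deleted and 124 CPM in floxed control libraries (edgeR adjusted p = 0.0758), and Fn1 averaged 629 and 903 CPM (edgeR adjusted p = 0.0780). Neither passed the threshold. None of the 6 other SMAD genes tested passed the edgeR threshold, Smad2 averaging 126 CPM in Yy1-deleted and 91.6 CPM in floxed control libraries (adjusted p = 0.273) and Smad4, the shared partner, 90.0 and 112 CPM (adjusted p = 0.531). Among 18 negative regulators and corepressors, Skil alone passed the edgeR threshold, and among 4 BMP-induced genes tested none did, Id2 being nearest at 230 CPM in Yy1-deleted and 338 CPM in floxed control libraries (adjusted p = 0.0672).

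**Figure D5:**
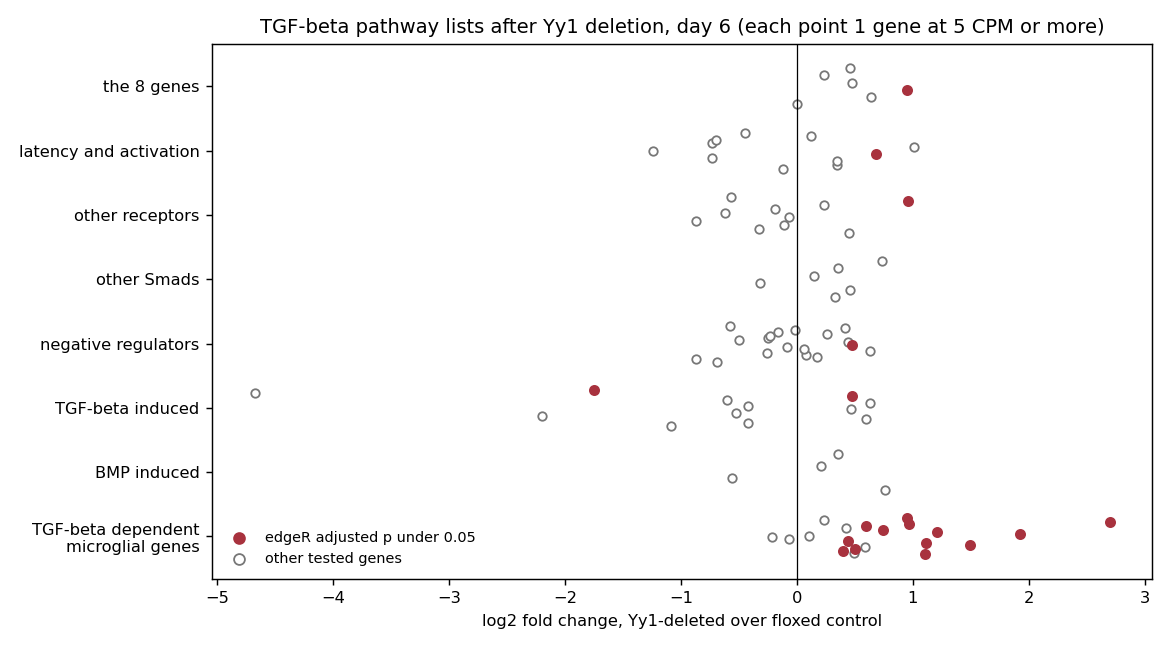
Log2 fold change (horizontal axis, Yy1-deleted over floxed control, 3 libraries each) of the genes of each pathway list (rows); each point is 1 gene at 5 CPM or more in at least 1 group and above 0 in both, filled where the edgeR adjusted p was under 0.05. Filled points to the right are mostly in the TGF-beta dependent microglial list (13 of 20), and Tgfbi, at -1.75, is the filled point to the left.

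Levels of different genes were compared per length, as reads per kilobase of exon scaled to library size (RPKM). In the sham library Tgfbr1 was the most abundant of the 8 at 577 RPKM, followed by Ski at 140 RPKM, Tgfbr2 at 109 RPKM and Tgfb1 at 67.3 RPKM. Smad7 (47.8 RPKM) and Smad3 (47.5 RPKM) followed and lay close together, and Tgfb2 and Tgfb3 were under 1 RPKM. The inhibitory Smad7 over Smad3, as a ratio of RPKM, was 1.01 in the sham library and 1.26, 1.69, 0.871 and 0.789 on days 1, 6, 14 and 28. In the Yy1 comparison this ratio was 1.57 ± 0.31 in Yy1-deleted and 1.27 ± 0.20 in floxed control libraries (SD, n = 3 each), and the ranges overlapped. Tgfbr1 over Tgfbr2 was 3.47 ± 0.50 in Yy1-deleted and 4.06 ± 0.58 in floxed control libraries on the same scale, also with overlap.

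Across the 7 libraries of the time course table, the genes fell into patterns that are described here with no test, since the libraries share a scaling and differ in depth and cell makeup. Tgfb1 ran against Tgfb3 (Pearson r -0.93 of log2 CPM, 7 libraries) and against Tgfb2 (r -0.79), whereas Tgfb2 and Tgfb3 ran together (r 0.83). Smad3 and Smad7 ran together (r 0.83), Tgfbr1 ran with Tgfb1 (r 0.77) and Tgfbr2 with Ski (r 0.77). Both receptors were less alike (r 0.58). The genes most like each member among 9372 candidates were Rin2 for Tgfb1 (r 0.98), Dmpk for Tgfb2 (r 0.99), Itga3 and Lrrc32 for Tgfb3 (both r 0.99), Pld1 for Tgfbr1 (r 0.99), Lrp5 for Tgfbr2 (r 0.99), Plcl1 for Smad3 (r 0.99), Arl10 and Epha2 for Smad7 (both r 0.99) and Atf7 for Ski (r 0.98). With 7 libraries, 29 genes ran with Smad7 at an r over 0.9, and 50 with Ski. Among the 3 nearest genes of each member, Epha2 and Rab3il1, a neighbour of Ski, were the ones that passed the edgeR threshold in the separate Yy1 libraries. Over all genes tested there, 1.55% rose and 1.05% fell. Epha2, which encodes an ephrin receptor kinase, averaged 101 CPM in Yy1-deleted and 50.9 CPM in floxed control libraries (log2 fold change 0.99, edgeR adjusted p = 0.0277). Rab3il1, which encodes a regulator of vesicle traffic, averaged 271 CPM in Yy1-deleted and 124 CPM in floxed control libraries (log2 fold change 1.13, edgeR adjusted p = 0.00219), while the log2 fold change of Ski was within its error of 0.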

How the data were processed

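Bulk RNA-seq of sorted mouse microglia was analysed from 3 tables deposited by the authors. The time course and day 14 EGFP tables hold whole read counts per gene, deposited without normalization. The Yy1 table, as deposited, was taken to hold expected counts, since 3.55% to 4.75% of its values per library were not whole; how these arose was not given in the sources used here. They were rounded before testing. STAR, featureCounts and edgeR are named in the submitters' processing notes, as are the builds mm10 and GRCm38, without versions. Strand use in counting is not given in the sources used here. Groups were read from sample titles, and 0 columns went unused. Date-like names of 27 genes stayed in library sizes and were not named.

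Computations used R 4.3.3 with edgeR 4.0.16 (TMM, filterByExpr, quasi-likelihood test), limma 3.58.1 and, as an alternative, DESeq2 1.42.0. The code was tested on simulated data, where the edgeR fit recovered 19 of 100 changes of 2-fold and 96 of 100 of 4-fold, with 5 false calls. The simulation used the same spread for all genes, which the data need not have, and planted changes only in genes above 20 CPM. That spread was below the edgeR common dispersion estimated from the Yy1 libraries, 0.332. The counts recovered and the false calls thus need not hold for these data. Missing the threshold does not show that a gene was unchanged. The Yy1 p-values reflect the spread among these 6 libraries, which the series describes as biological replicates. TMM scaling of the time course table used genes at 5 CPM or more. Comparisons of 1 library each added 1 CPM to both values, so changes of low genes are understated. Small counts there (1 to 20) were even in 68.7% to 90.9% of cases, so intervals were computed from counts divided by 2, and reads were not tied to molecules. RPKM used the exon lengths of the GENCODE annotation of GRCm38. All 8 members were named, with up to 4 passing genes of each pathway list by size of change; further list genes, near misses included, were named after their values were seen. The members and gene lists were chosen with earlier results of these data known. Alternatives were scaling, filters, pseudocounts, thresholds, the replicate block, DESeq2 and leaving out each Yy1 library.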

Additional observations from a re-analysis of the deposited data

How the results depend on the processing

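In the Yy1 comparison 1 of the 8 genes passed the threshold; DESeq2 and the fit without a low-count filter gave 3 (adding Smad3 and Tgfbr2), and leaving out 1 library gave 0 to 1. DESeq2 put Tgfbr2 at a log2 fold change of 0.47 (adjusted p = 0.00191) and Smad3 at 0.65 (adjusted p = 0.00622); without the filter edgeR gave 0.46 (adjusted p = 0.0469) and 0.64 (adjusted p = 0.0194). The log2 fold change of Smad7 ran from 0.83 to 1.04 when 1 library was left out, and the call was lost only without floxed control replicate 1. Pathway genes passing numbered 17, 26 with DESeq2, and 10 to 15 when 1 library was left out, the lowest again without that library. Their split was 16 up and 1 down in the main fit, and 12 up and 4 down with scaling by total counts. Among all genes, 192 rose and 130 fell in the main fit, against 127 and 193 with scaling by total counts. With the replicate number as a block, 1 of the 8 genes and 19 pathway genes passed, and Smad7 had an edgeR adjusted p of 0.00131. Same-numbered libraries did not deviate together (r -0.00758, -0.0479 and -0.0154), so the numbers were not taken to pair them. The counts past the size rule were 2 upward and 2 downward on wild-type day 14, and 5, 2, 2, 2 and 0 for day 1, day 6, day 28, EGFP day 6 and EGFP day 14. At a log2 ratio of 2 they were 1 on day 1 and 0 on day 6, on day 28 and for EGFP on day 6. With a minimum of 5 CPM they were 4 on day 6 and 2 for EGFP on day 14. The day 28 count was 1 with RLE scaling and 4 with TMM over the wild-type libraries. Scaling moved the median of all genes by up to 0.16 on the log2 scale (RLE, day 14). TMM without wild-type days 14 and 28, chosen after seeing the data, left the counts of day 1, day 6 and EGFP day 6 at 5, 2 and 2. The log2 fold change of Ski in the Yy1 comparison, close to 0 and never past the threshold, changed sign: it was 0.0056 with DESeq2, 0.0055 with RLE scaling and -0.18 to 0.14 when 1 library was left out. No other log2 value changed sign. Single libraries allow no test, and Tgfb2 and Tgfb3 rest on few counts on day 28, in the day 14 EGFP libraries and in the Yy1 libraries.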
